A study of Rattus norvegicus with 13 samples.

Results

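Insulin-like growth factor 1 (Igf1), 3 of its binding proteins (Igfbp1, Igfbp2 and Igfbp3), the acid-labile subunit (Igfals) and the receptor Igf2r were followed in rat liver across 4 gestational diets. The members were all probe sets, other than controls, that the array's annotation assigns to 1 of these 6 gene symbols and to no other. This gave 6 of the 4736 genes with a probe set of their own, and 15 probe sets of 8740: 5 for Igf1, 3 each for Igfbp2 and Igfals, 2 for Igfbp3 and 1 each for Igfbp1 and Igf2r. All 15 were among the 5244 probe sets bright enough to be tested.

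The arrays held total RNA, by the series title from liver, of time-mated female Sprague Dawley rats. EtOH-160 (n = 4) combined ethanol at 12 g per kg and day with an undernourishing supply of 160 kcal per day and kg to the power 0.75. EtOH-220 (n = 3) had the same ethanol dose with 220 kcal, TEN-160 (n = 3) a diet free of ethanol at 160 kcal, and TEN-220 (n = 3) a diet free of ethanol at 220 kcal. All groups were mated females, so no comparison shows an effect of pregnancy itself. The rats' age, the gestation day and whether RNA was pooled are not given in the sources used here, so the p-values cover the spread between these arrays and no more.

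IGF-1 is a growth factor of the blood made largely by the liver, where growth hormone drives its transcription and undernutrition is known to lower it. In blood most of it is held in a complex of IGF-1, IGFBP3 and the acid-labile subunit, while IGFBP1 and IGFBP2 form smaller complexes whose production rises when insulin is low, as in fasting. The receptor Igf2r, also the cation-independent mannose 6-phosphate receptor, clears IGF-2 and carries lysosomal enzymes.

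Values are scaled signals on a linear scale, and the level of a group is their geometric mean. A change is one group's mean log2 signal minus the other's, given with its standard error (SE) from limma. A change was called at an adjusted p under 0.05 (limma, Benjamini-Hochberg over all 5244 probe sets). A signal under 47.4, the 95th percentile of the bacterial control probe sets, is referred to as below background. Bright and dim probe sets differ in their probes, so levels are compared within a probe set only.

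The 3 TEN-160 arrays differed as a set from the 10 remaining ones, which touches each result that uses them. The ratio of the BioDn 5′ to 3′ spike control was 0.422 to 0.497 in TEN-160 and at most 0.21 elsewhere. The first principal component (29.6% of the variance) scored 31.1 to 42.0 in TEN-160 and −14.3 to −2.93 in the other groups. The GAPDH 3′/5′ ratio was 1.5 to 1.73 in EtOH-160, 1.04 to 1.47 in EtOH-220, 1.03 to 1.24 in TEN-160 and 1.52 to 2.32 in TEN-220. Hepatocyte markers (7 of 8 listed genes tested) summed to signals of 135600 to 172000 in EtOH-160, 155700 to 185100 in EtOH-220, 170500 to 213700 in TEN-160 and 162700 to 174300 in TEN-220. Stellate cell and fibroblast markers (9 of 12) summed to 7767 to 10140 in EtOH-160, 7660 to 10740 in EtOH-220, 10060 to 11120 in TEN-160 and 6500 to 8562 in TEN-220. Endothelial markers (5 of 10) summed to 1075 to 1667 in EtOH-160, 1224 to 1433 in EtOH-220, 1313 to 2309 in TEN-160 and 920.6 to 1070 in TEN-220. Kupffer cell and macrophage markers (8 of 12) summed to 6491 to 8054 in EtOH-160, 7015 to 11360 in EtOH-220, 9308 to 11100 in TEN-160 and 8228 to 9657 in TEN-220. Counting untested ones too, 1 of 19 hepatocyte and 3 of 25 stellate cell and fibroblast marker probe sets were below background on all arrays. For the endothelial markers it was 1 of 6, and for the Kupffer cell and macrophage markers 2 of 22. The part of array quality and of these other cells in the results was not tested, and in such bulk RNA fewer cells of a type and less RNA per cell cannot be told apart. As these arrays make up the whole TEN-160 group, a difference between sets of arrays cannot be told apart from the diet.

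In low energy without ethanol, the pairwise comparison with the most calls among these genes, 6 of the 15 probe sets, from 5 genes, were called in TEN-160 against TEN-220, where 18.3% of all tested probe sets were called. The transcripts of Igfbp1, 1 Igfbp2 probe set and 1 Igf1 probe set were higher, and 2 Igfals probe sets and 1 Igfbp3 probe set lower. In EtOH-160 against TEN-160, 3 of 15 were called, near the 22.3% of all probe sets: 1 Igfbp3 probe set was higher, and Igf2r and 1 Igf1 probe set lower. EtOH-160 against TEN-220, the comparison free of the TEN-160 arrays with calls among the members, had 2 of 15, both higher and both of Igfbp2, against 2.27% of all. For ethanol at 220 kcal (EtOH-220 against TEN-220) limma called 0 of 15, while 0.0191% of all were called. At an unadjusted p under 0.05 there were 2 of the 15 and 10.4% of all. For low energy with ethanol (EtOH-160 against EtOH-220) it called 0 of 15 and 0.324% of all, and at an unadjusted p under 0.05 there were 4 of the 15 and 11.1% of all. The median change of the 15 was 0.37 for TEN-160 against TEN-220, beside 0.06 over all tested probe sets, and between −0.05 and 0.13 in the other 4 pairwise comparisons. These comparisons share arrays, so their changes are not independent of each other.

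**Figure D1:**
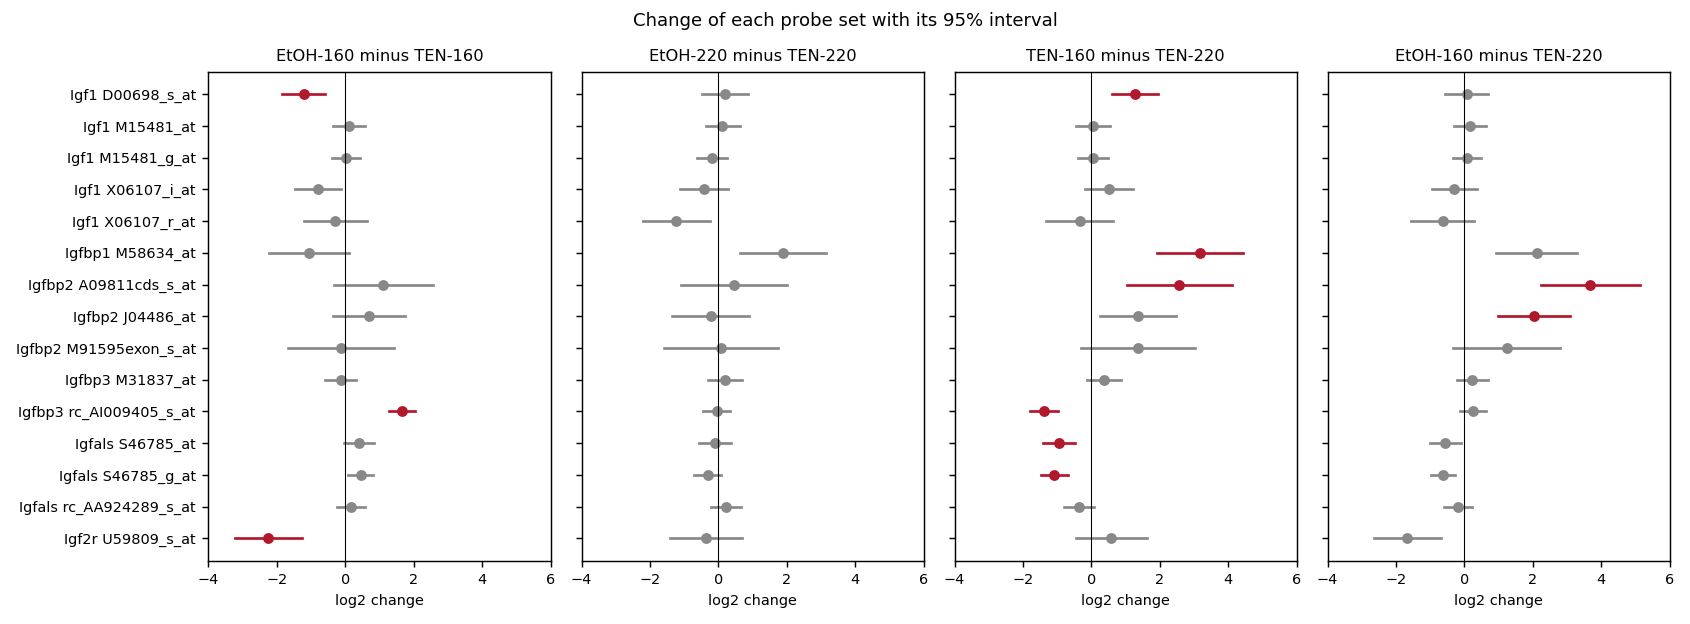
Log2 change of the 15 probe sets (rows) with its 95% interval in 4 comparisons (columns). Red marks an adjusted p under 0.05 and grey the others. The 6 red intervals of TEN-160 minus TEN-220 lie on both sides of 0, and the 2 red intervals of EtOH-160 minus TEN-220 are both of Igfbp2.

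Igf1 itself, the ligand, was read by 5 probe sets that did not move together. The brightest, M15481_g_at, had overlapping signals on all diets and no call, whereas D00698_s_at was about 2.31-fold lower in EtOH-160 than in TEN-160 and 2.41-fold higher in TEN-160 than in TEN-220. The remaining 3 had no call.

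M15481_g_at had signals of 6746, 9814, 9127 and 8076 in EtOH-160, of 5947, 7316 and 7925 in EtOH-220, of 8847, 6024 and 10499 in TEN-160, and of 7024, 8298 and 8651 in TEN-220. The 4 groups overlapped, and the highest and the second lowest of the 13 signals were both from TEN-160. The change was 0.02 (95% interval −0.39 to 0.43) for EtOH-160 minus TEN-160 and −0.18 (−0.62 to 0.26) for EtOH-220 minus TEN-220. It was 0.25 (−0.16 to 0.66) for EtOH-160 minus EtOH-220, 0.05 (−0.39 to 0.49) for TEN-160 minus TEN-220 and 0.07 (−0.34 to 0.48) for EtOH-160 minus TEN-220. The widest bound among these 5 intervals was 0.66 on the log2 scale. The order of the levels was EtOH-160 (8358), TEN-160 (8240), TEN-220 (7959) and EtOH-220 (7012), with adjusted p between 0.815 and 0.952 for the neighbours (limma). M15481_at, made from the same source sequence, ranged over 918 to 1703 with geometric means of 1354 in EtOH-160, 1325 in EtOH-220, 1262 in TEN-160 and 1218 in TEN-220, and its groups overlapped too.

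D00698_s_at had signals of 570.5, 673, 652 and 457 in EtOH-160, of 1019.7, 569.9 and 449 in EtOH-220, of 1960.0, 1248 and 993 in TEN-160, and of 404, 629 and 682 in TEN-220. All 3 TEN-160 arrays were above every EtOH-160 and TEN-220 array, while the EtOH-220 replicate 1 lay within the TEN-160 range. TEN-160 did not overlap EtOH-160 for 31.8% of all tested probe sets and TEN-220 for 37.1%. The change was −1.21 (SE 0.296, adjusted p = 0.0105, limma, n = 4 and 3) for EtOH-160 minus TEN-160 and 1.27 (SE 0.316, adjusted p = 0.014, limma, n = 3 and 3) for TEN-160 minus TEN-220. Without TEN-160 replicate 1 these were −0.94 (adjusted p = 0.0563) and 1.00 (adjusted p = 0.0607), and without TEN-220 replicate 1 the second was 1.04 (adjusted p = 0.0719). Both calls were thus lost without a single array. The other 3 groups lay close together, with 639 in EtOH-220, 582 in EtOH-160 and 557 in TEN-220, and changes of −0.14 for EtOH-160 minus EtOH-220, 0.20 for EtOH-220 minus TEN-220 and 0.06 for EtOH-160 minus TEN-220 (adjusted p at least 0.883, limma).

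X06107_i_at and X06107_r_at carry suffixes that mark relaxed rules of probe choice. Another suffix, _s, is carried by several called probe sets, namely D00698_s_at, A09811cds_s_at, rc_AI009405_s_at and U59809_s_at. Probe sequences were not available, so the disagreement between probe sets of a gene was not set against their probes. X06107_i_at had geometric means of 340 in EtOH-160, 311 in EtOH-220, 592 in TEN-160 and 417 in TEN-220. Its change of −0.80 for EtOH-160 minus TEN-160 had an adjusted p of 0.0765 (limma). That change passed in 2 of 13 fits that left out 1 array and under 2 of 11 other settings. For TEN-160 minus TEN-220 its change was 0.50 (adjusted p = 0.308, limma). Both changes had the direction of those of D00698_s_at. X06107_r_at had signals of 259, 783 and 558 in EtOH-220, all below the 1104, 1218 and 1096 of TEN-220, but its change of −1.23 did not pass (SE 0.457, adjusted p = 0.4, limma). The EtOH-160 arrays of that probe set spread over 311 to 1232 and overlapped all other groups. For ethanol at 220 kcal it was the only 1 of the 15 probe sets whose groups did not overlap, beside 16.9% of all tested probe sets.

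**Figure D2:**
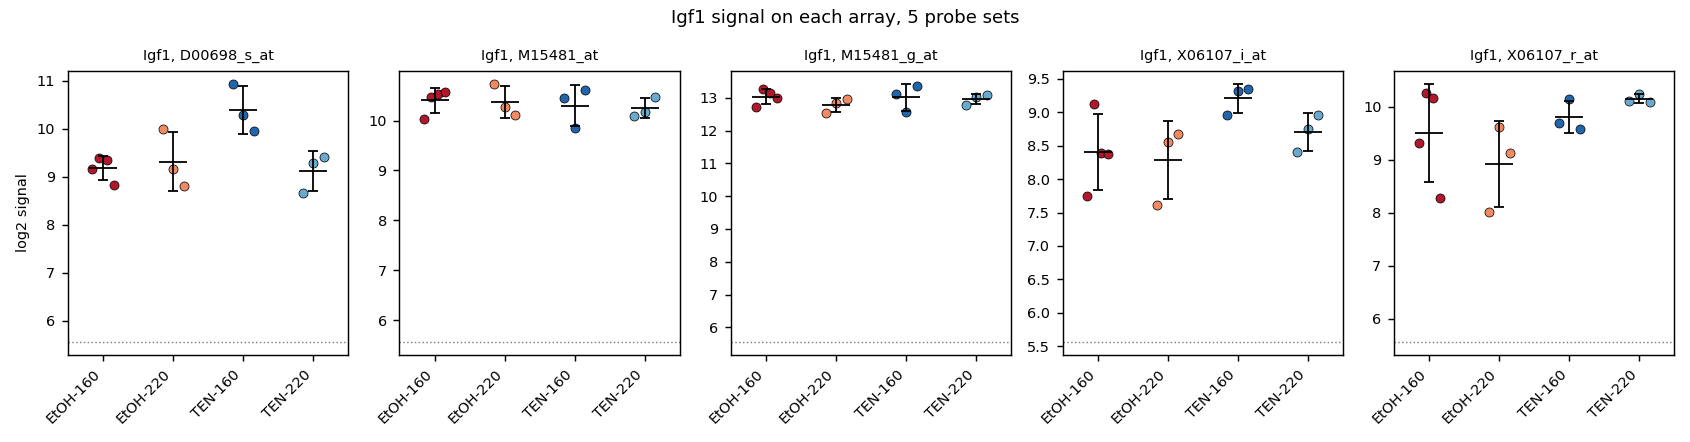
Log2 signal (vertical axis, a separate range in each panel) of the 5 Igf1 probe sets in EtOH-160, EtOH-220, TEN-160 and TEN-220. Points are arrays, and the bar with whiskers is the mean ± SD. TEN-160 lies above EtOH-160 and TEN-220 for D00698_s_at, while the groups overlap for both M15481 probe sets.

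Igfbp1, a small binding protein of blood whose liver transcript insulin represses, was 8.97-fold higher in TEN-160 than in TEN-220, and 5.9-fold without TEN-220 replicate 1. The geometric means of both ethanol groups lay between those of TEN-160 and TEN-220.

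Igfbp1 is known for an insulin response element in its proximal promoter, a pair of short repeats bound by FOXO factors, with an HNF1 site beside it. For Igfbp2, 1 of 3 probe sets was called higher in TEN-160 than in TEN-220. The 250 bases before the annotated start are given for Igfbp1 and Igf1, which both hold a form of the repeat, and for Igfbp2. They are from RefSeq, build GRCr8, + strand, at chr14:86261027-86261276 for Igfbp1, chr7:24172282-24172531 for Igf1 and chr9:81864561-81864810 for Igfbp2. Capitals mark matches to TGTTTTG, to TATTTTG and to GTTAAT on either strand.
Igfbp1: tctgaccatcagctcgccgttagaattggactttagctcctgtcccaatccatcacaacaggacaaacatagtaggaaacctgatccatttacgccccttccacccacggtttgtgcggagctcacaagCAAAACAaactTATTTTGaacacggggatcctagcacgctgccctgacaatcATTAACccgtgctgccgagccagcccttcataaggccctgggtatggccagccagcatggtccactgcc
Igf1: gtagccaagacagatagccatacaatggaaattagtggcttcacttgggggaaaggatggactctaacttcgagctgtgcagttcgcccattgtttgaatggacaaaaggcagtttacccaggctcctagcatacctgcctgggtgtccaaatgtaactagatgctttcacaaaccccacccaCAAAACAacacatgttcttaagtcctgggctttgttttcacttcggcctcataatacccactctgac
Igfbp2: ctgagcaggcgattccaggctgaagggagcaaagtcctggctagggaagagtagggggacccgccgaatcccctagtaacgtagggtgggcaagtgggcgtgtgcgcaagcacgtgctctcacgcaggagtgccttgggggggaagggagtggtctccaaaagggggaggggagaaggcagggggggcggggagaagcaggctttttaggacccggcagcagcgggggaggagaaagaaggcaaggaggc
Counted back from the start, the Igfbp1 window held CAAAACA, which reads TGTTTTG on the opposite strand, from position −121. The other form of the repeat, TATTTTG, followed from −110, and the HNF1 letters, ATTAAC on this strand, from −69. TGTTTTG occurred in 5.46% of 33469 promoter windows of this length, TATTTTG in 4.46%, both together in 0.373% and GTTAAT in 6.45%. The Igf1 window, which lies before the start of the transcript in the table, held CAAAACA at −67. The Igfbp2 window held none of these, and the STAT motif TTCNNNGAA, present in 7.67% of windows, was in none of the 6 genes' windows. These are matches of letters, and nothing was measured at these sites.

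Igfbp1 (M58634_at) had signals of 429, 817, 1133 and 1138 in EtOH-160, of 851, 1463 and 275 in EtOH-220, of 1470.0, 1382 and 2448 in TEN-160, and of 82.3, 289 and 289 in TEN-220. Each TEN-160 array was above every EtOH-160 and TEN-220 array, and each EtOH-160 array was above every TEN-220 array. Over all tested probe sets, the groups did not overlap for 31.8%, 37.1% and 16.7%, in the same order. EtOH-220 was the most spread group, with replicate 3 inside the TEN-220 range and replicate 2 inside the TEN-160 range.

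The change of Igfbp1 was 3.17 (SE 0.587, adjusted p = 0.00259, limma, n = 3 and 3) for TEN-160 minus TEN-220. Without TEN-220 replicate 1, the rescaled array, it was 2.56, a 5.9-fold difference (adjusted p = 0.0149, limma). For EtOH-160 minus TEN-220 it was 2.11, a 4.31-fold difference (SE 0.549, adjusted p = 0.0602, limma), and for EtOH-220 minus TEN-220 1.88, a 3.68-fold difference (SE 0.587, adjusted p = 0.32, limma). Neither passed, although the unadjusted p were 0.00177 and 0.00632. The change was −1.06 for EtOH-160 minus TEN-160 (adjusted p = 0.185, limma), and low energy in the presence of ethanol gave 0.23 (95% interval −0.95 to 1.4; adjusted p = 0.907, limma). The ethanol effect at 160 kcal minus that at 220 kcal was −2.94 (SE 0.803, adjusted p = 0.0395, limma). In this interaction 2 of the 15 probe sets were called, with 7.72% of all called. The call was lost on leaving out any of 9 arrays, among them TEN-220 replicate 1 (−2.33, adjusted p = 0.0999) and EtOH-220 replicate 2 (−2.4, adjusted p = 0.0761), while it was −3.61 without EtOH-220 replicate 3. It was also lost with median-centred values (−2.64, adjusted p = 0.0511), without a variance trend (adjusted p = 0.0571) and without the filter (adjusted p = 0.0975, limma). In order of level the groups were TEN-160 (1707), EtOH-160 (820), EtOH-220 (700) and TEN-220 (190), and no neighbours in this order differed at an adjusted p under 0.05.

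Igfbp2, a binding protein that the liver makes in fetal life and again in fasting, was the gene with calls in EtOH-160 against TEN-220. Its 3 probe sets were higher in EtOH-160 than in EtOH-220 and higher in TEN-160 than in TEN-220 by their geometric means. The probe sets differed in which changes passed the test, and none was called for ethanol at either energy supply.

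A09811cds_s_at had signals of 358, 110.5, 303 and 615 in EtOH-160, of 61.5, 15.5 and 32.9 in EtOH-220, of 185, 303 and 45.3 in TEN-160, and of 19.9, 33.8 and 17.8 in TEN-220. All 3 TEN-220 arrays, 2 of 3 EtOH-220 arrays and 1 of 3 TEN-160 arrays were below background. Its change of 3.68 for EtOH-160 minus TEN-220 (SE 0.673, adjusted p = 0.0118, limma, n = 4 and 3) stands for at least 6.19-fold, with TEN-220 set to the background. The change of 2.57 for TEN-160 minus TEN-220 (SE 0.719, adjusted p = 0.0245, limma) stands for at least 2.88-fold. For EtOH-160 minus EtOH-220 the change was 3.22 (adjusted p = 0.0624, limma), and 2.50 (adjusted p = 0.0781, limma) with signals below background set to it. These groups did not overlap, beside 10.4% of all tested probe sets. Without TEN-220 replicate 1 the adjusted p were 0.0503 for EtOH-160 minus TEN-220 and 0.0759 for TEN-160 minus TEN-220. TEN-160 minus TEN-220 also missed the threshold without TEN-220 replicate 3 or without TEN-160 replicate 1 or 2, where the change was 2.0 to 2.39, whereas it was 3.37 without TEN-160 replicate 3. It missed it as well with the floor at the background (1.55, adjusted p = 0.0896), with quantile normalization (2.22, adjusted p = 0.0638) and without the filter on dim probe sets (adjusted p = 0.0642), which also ended the call for EtOH-160 minus TEN-220 (adjusted p = 0.0607, limma).

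J04486_at, the brightest of the 3, had signals of 646, 192, 695 and 841 in EtOH-160, of 187, 62.6 and 105 in EtOH-220, of 390.0, 372 and 234 in TEN-160, and of 115, 210 and 82.5 in TEN-220. Its change for EtOH-160 minus TEN-220 was 2.04, a 4.12-fold difference (SE 0.489, adjusted p = 0.042, limma), although EtOH-160 replicate 2 lay below TEN-220 replicate 2. That call was lost without any 1 of 9 arrays and under 7 of 11 other settings. For EtOH-160 minus EtOH-220 the change was 2.28 (adjusted p = 0.073, limma) with all EtOH-160 arrays above all EtOH-220 arrays. Of all tested probe sets, 10.4% had no overlap between these groups. For TEN-160 minus TEN-220 the change was 1.36 (adjusted p = 0.0884, limma).

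M91595exon_s_at had signals of 462, 38.8, 483 and 453 in EtOH-160, of 143, 85.1 and 116 in EtOH-220, of 347, 256 and 230.2 in TEN-160, and of 48.9, 196 and 128 in TEN-220. EtOH-160 replicate 2, the lowest EtOH-160 array on all 3 Igfbp2 probe sets, was here far below its group. No comparison was called, with changes of 1.16 for EtOH-160 minus EtOH-220, 1.35 for TEN-160 minus TEN-220 and 1.23 for EtOH-160 minus TEN-220 (adjusted p = 0.581, 0.246 and 0.486, limma). Without EtOH-160 replicate 2 the change for EtOH-160 minus TEN-220 was 2.12 and passed (adjusted p = 0.0179, limma), and that for TEN-160 minus TEN-220, in which that array has no part other than in the estimate of the spread, stayed at 1.35 and passed (adjusted p = 0.0328, limma). The order of levels for J04486_at was EtOH-160 (519), TEN-160 (324), TEN-220 (126) and EtOH-220 (107), and no neighbours passed the test.

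**Figure D3:**
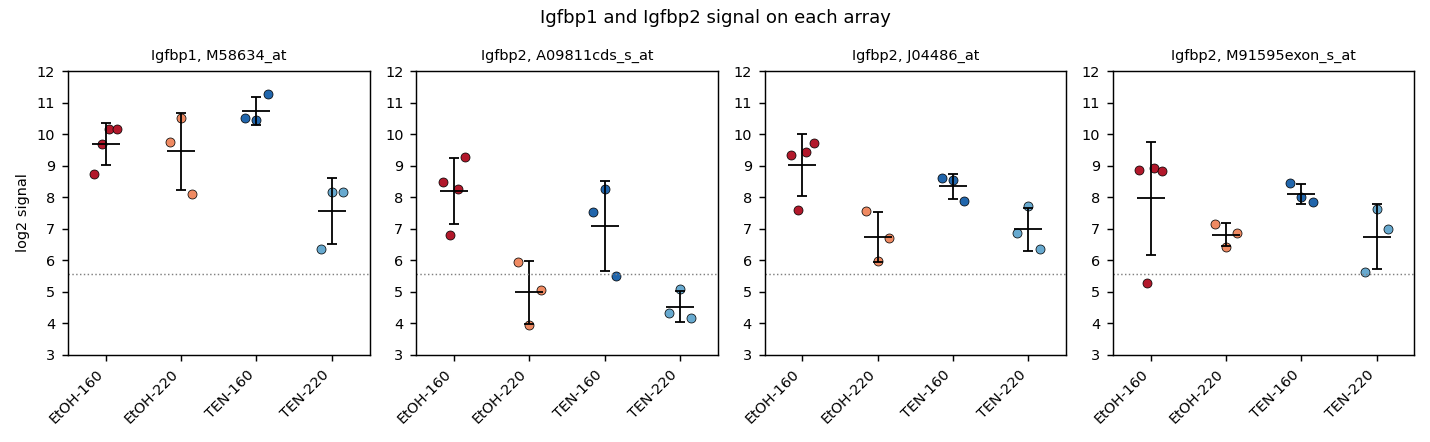
Log2 signal of the Igfbp1 probe set and the 3 Igfbp2 probe sets in EtOH-160, EtOH-220, TEN-160 and TEN-220, all panels on 1 vertical range. Points are arrays, bars the mean ± SD, and the dotted line the background of 47.4. Igfbp1 is lowest in TEN-220, and A09811cds_s_at lies below background on all 3 TEN-220 arrays.

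Igfbp3, the main carrier of IGF-1 in blood, which liver makes mostly outside hepatocytes, was read by 2 probe sets that disagreed. rc_AI009405_s_at was 3.14-fold higher in EtOH-160 than in TEN-160 and 2.63-fold lower in TEN-160 than in TEN-220. M31837_at showed neither difference.

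rc_AI009405_s_at had signals of 611, 722.5, 674 and 498 in EtOH-160, of 502.5, 545 and 463 in EtOH-220, of 180.0, 189 and 227 in TEN-160, and of 442, 620.4 and 514 in TEN-220. The 3 TEN-160 arrays were below all 10 others, as they were above or below them for 15.4% of all tested probe sets. The change was 1.65 (SE 0.177, adjusted p = 9.56e-05, limma, n = 4 and 3) for EtOH-160 minus TEN-160 and −1.40 (SE 0.189, adjusted p = 0.000399, limma, n = 3 and 3) for TEN-160 minus TEN-220, and the ethanol effect differed between the energy supplies by 1.70 (SE 0.259, adjusted p = 0.00316, limma). The BioDn ratio separates the same 3 arrays from the others (0.422 to 0.497 against at most 0.21). Its part in this result was not tested and cannot be told apart from the diet. No comparison among EtOH-160, EtOH-220 and TEN-220, with levels of 620.5, 502 and 520.5, passed the test.

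M31837_at had signals of 412, 377, 609 and 318 in EtOH-160, of 429.7, 454 and 348 in EtOH-220, of 427, 453 and 501 in TEN-160, and of 286, 369.9 and 420.4 in TEN-220. All TEN-160 arrays were above all TEN-220 arrays by a small margin, beside 37.1% of all tested probe sets whose groups did not overlap. The change of 0.37 (95% interval −0.12 to 0.87, adjusted p = 0.28, limma) was not called. For EtOH-160 minus TEN-160 the change was −0.14 (95% interval −0.6 to 0.32; adjusted p = 0.678, limma). Igfbp1 and Igfbp3 are neighbours on chromosome 14 with 0 protein-coding genes between them in the RefSeq table. In TEN-160 against TEN-220 Igfbp1 was higher, whereas 1 Igfbp3 probe set was lower and the other was not called.

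Igfals, the acid-labile subunit that hepatocytes make and that locks IGF-1 and IGFBP3 into the large complex, was lower in TEN-160 than in TEN-220. The 2 probe sets made from the S46785 sequence fell 1.94-fold and 2.11-fold in TEN-160 against TEN-220. The third, rc_AA924289_s_at, showed no call.

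S46785_g_at had signals of 1915, 2481, 2275 and 2308 in EtOH-160, of 2073, 3434 and 2998 in EtOH-220, of 1584, 1767 and 1559 in TEN-160, and of 3373, 3645 and 3336 in TEN-220. TEN-160 was below all 10 other arrays, and EtOH-160 lay wholly between TEN-160 and TEN-220. The TEN-160 arrays were wholly above or below the others for 15.4% of all tested probe sets. A difference between sets of arrays cannot be told apart from the diet here. The change was −1.08 (SE 0.179, adjusted p = 0.00134, limma, n = 3 and 3) for TEN-160 minus TEN-220. It was −0.63 (adjusted p = 0.0651, limma) for EtOH-160 minus TEN-220, 0.45 (adjusted p = 0.0671, limma) for EtOH-160 minus TEN-160, and the interaction was 0.77 (adjusted p = 0.0726, limma). S46785_at had signals of 1009, 1436, 1356 and 1320.0 in EtOH-160, of 1135, 2249 and 2045.5 in EtOH-220, of 929, 1031 and 935 in TEN-160, and of 1889, 1878 and 1837 in TEN-220. Its change was −0.95 (SE 0.223, adjusted p = 0.00999, limma) for TEN-160 minus TEN-220, −0.56 (adjusted p = 0.222, limma) for EtOH-160 minus TEN-220 and −0.45 (adjusted p = 0.45, limma) for EtOH-160 minus EtOH-220. rc_AA924289_s_at had geometric means of 739 in EtOH-160, 976 in EtOH-220, 658 in TEN-160 and 844 in TEN-220, with TEN-160 again the lowest group and overlap between groups. For the S46785 probe sets the order was TEN-220, EtOH-220, EtOH-160 and TEN-160, and no neighbours in it passed the test.

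Igf2r, which clears IGF-2 and sorts lysosomal enzymes, was lower in EtOH-160 than in TEN-160, and 3 of the 4 EtOH-160 arrays were below background. Its 1 probe set, U59809_s_at, was dim, with signals of 35.9, 36.8, 120.1 and 41.1 in EtOH-160, of 216, 142 and 65.4 in EtOH-220, of 261, 269 and 201 in TEN-160, and of 188, 110.1 and 204 in TEN-220. EtOH-160 replicate 3, the array above background, lay within the range of EtOH-220 and of TEN-220. All EtOH-160 arrays were below all TEN-160 arrays, beside 31.8% of all tested probe sets whose groups did not overlap there. The change was −2.26 (SE 0.454, adjusted p = 0.00357, limma, n = 4 and 3) for EtOH-160 minus TEN-160. With signals below background set to it, the change was −2.02 (adjusted p = 0.0035, limma), a 4.06-fold difference. It was −1.68 (SE 0.454, adjusted p = 0.0698, limma) for EtOH-160 minus TEN-220 and −1.32 (adjusted p = 0.252, limma) for EtOH-160 minus EtOH-220. The changes for EtOH-220 minus TEN-220 (−0.36) and TEN-160 minus TEN-220 (0.58) did not pass, nor did the interaction (−1.90, adjusted p = 0.0934, limma). The groups ran from TEN-160 (242) through TEN-220 (162) and EtOH-220 (126) to EtOH-160 (50.5), and no neighbours differed beyond their spread at an adjusted p under 0.05.

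**Figure D4:**
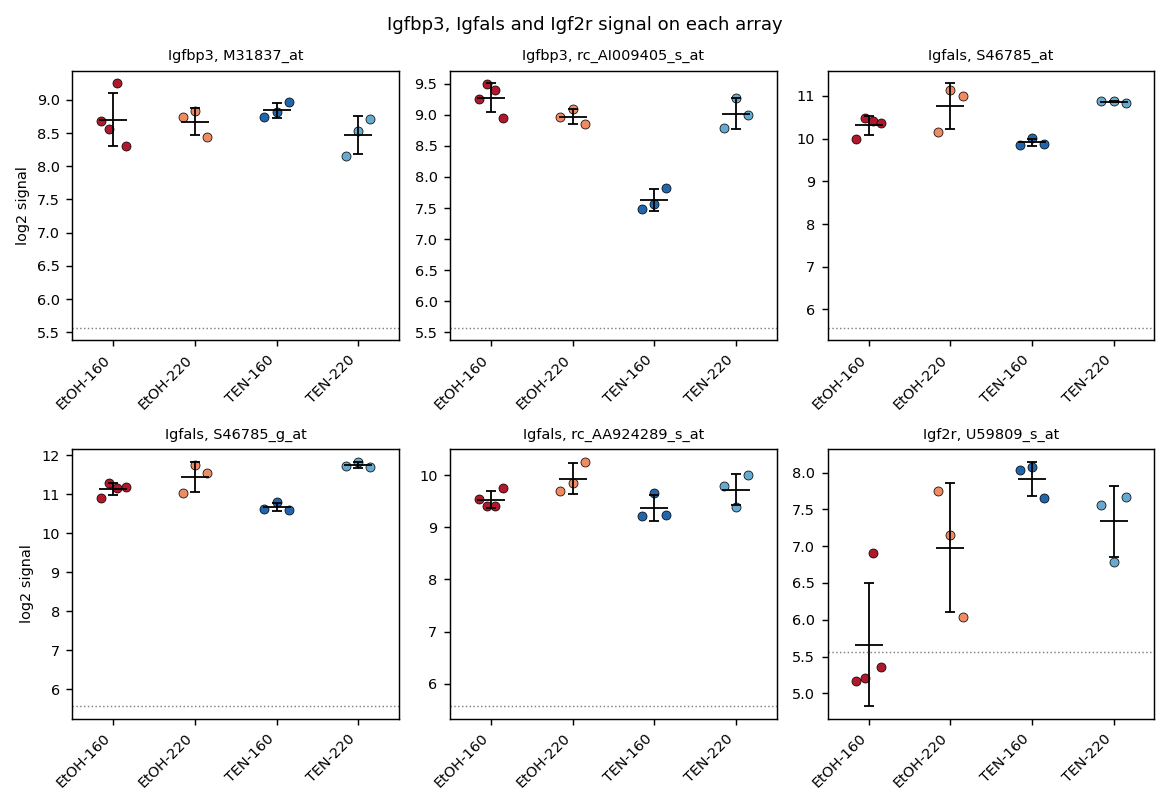
Log2 signal (vertical axis, a separate range in each panel) of 2 Igfbp3, 3 Igfals and 1 Igf2r probe sets in EtOH-160, EtOH-220, TEN-160 and TEN-220. Points are arrays, bars the mean ± SD, and the dotted line the background of 47.4. TEN-160 is lowest for rc_AI009405_s_at and the S46785 probe sets, and 3 of 4 EtOH-160 arrays lie below the line for Igf2r.

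Of 15 other genes listed for the IGF system 9 were tested, and 1 was called. Of all tested probe sets, 22.3% were called in EtOH-160 against TEN-160 and 18.3% in TEN-160 against TEN-220. The called gene was Ctsd, the lysosomal protease cathepsin D that Igf2r carries. Its change was 0.85 for EtOH-160 minus TEN-160 (adjusted p = 0.00179, limma) and −0.87 for TEN-160 minus TEN-220 (adjusted p = 0.00279, limma). The median change of the 9 was 0.21 for EtOH-160 minus TEN-160, beside −0.07 over all probe sets, and −0.07 for TEN-160 minus TEN-220, beside 0.06. The signalling receptor Igf1r, little expressed by hepatocytes, was called on neither of its 2 probe sets. On the brighter, M27293_s_at, its levels were 117 in EtOH-160, 149 in EtOH-220, 98.1 in TEN-160 and 83.7 in TEN-220.

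Genes between growth hormone and Igf1 transcription (14 tested of 16) had 2 higher and 2 lower calls in EtOH-160 against TEN-160, and likewise 2 and 2 in TEN-160 against TEN-220. Of all tested probe sets, 22.3% and 18.3% were called in these comparisons. The growth hormone receptor Ghr was lower in EtOH-160 than in TEN-160 on all 3 of its probe sets, with changes of −0.81 on S49003_s_at (adjusted p = 0.0347, limma), −0.68 on Z83757mRNA_at (adjusted p = 0.0117, limma) and −2.35 on Z83757mRNA_g_at (adjusted p = 0.000324, limma). In TEN-160 against TEN-220 it was called on Z83757mRNA_g_at alone, at 2.08 higher (adjusted p = 0.000941, limma). Socs2, which growth hormone induces and which dampens its signal, was higher in TEN-160 than in TEN-220 (change 1.99, SE 0.407, adjusted p = 0.00479, limma). All TEN-220 arrays were below background for Socs2, so that the difference was at least 3.02-fold. Its levels were 72.4 in EtOH-160, 46.3 in EtOH-220, 143 in TEN-160 and 36.1 in TEN-220. Cebpb and Cebpa, transcription factors of the hepatocyte, had changes of 0.68 and 0.86 for EtOH-160 minus TEN-160 and of −1.25 and −0.60 for TEN-160 minus TEN-220, all called. Ptpn6 was lower in EtOH-160 than in TEN-160 (change −0.8, adjusted p = 0.0102, limma). Prlr was higher in TEN-160 than in TEN-220 (change 0.96, adjusted p = 0.0377, limma).

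Genes that respond to insulin and fasting (12 tested of 18) had 3 higher and 1 lower calls in EtOH-160 against TEN-160, beside 22.3% of all tested probe sets called. In TEN-160 against TEN-220 they had 2 higher and 3 lower, beside 18.3% of all. Pck1, the gluconeogenic enzyme that insulin represses through a similar element, had levels of 3096 in EtOH-160, 1613 in EtOH-220, 2904 in TEN-160 and 519 in TEN-220. It was 2.48 higher in TEN-160 (adjusted p = 0.0149, limma) and 2.58 higher in EtOH-160 (adjusted p = 0.0356, limma) than in TEN-220. Cpt1a, which admits fatty acids to mitochondria, was 2.01 higher in TEN-160 than in TEN-220, while the lipogenic enzyme Fasn was lower (change −2.87), as was its regulator Srebf1 (−1.54). The kinase Pdk2 was lower as well (−0.93, adjusted p = 0.028, limma). The remaining tested genes of the list were not called there, with changes from −0.95 (Trib3) to 0.38 (Asns), among them Pdk4 at 0.21. In EtOH-160 against TEN-160 Cpt1a was lower (−1.23), and Fasn (2.58), Srebf1 (1.19) and the kinase Pdk2 (1.44) were higher. Neither list had a call in EtOH-220 against TEN-220 or in EtOH-160 against EtOH-220. The median change of the insulin and fasting list was 0.46 for EtOH-160 minus EtOH-220, beside −0.03 over all probe sets. For TEN-160 minus TEN-220 it was −0.15, beside 0.06. The list holds genes regulated like Igfbp1 and genes regulated in the opposite way, so its median marks no direction of response.

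The genes whose mean-centred log2 profile over the 13 arrays lay closest to the brightest probe set of each member, by root mean square (RMS) difference, are given as a description. For Igfbp1 the closest was Pck1, at 0.576, where the Igfbp1 profile itself had an RMS of 1.32, followed by Pou2f3 (0.799) and Serpina7 (0.814). For Igfbp2 (J04486_at) they were Slco1a4 (0.723), Acsm3 (0.771) and Atp1b1 (0.796), beside an RMS of 1.16 of its own. For Igfbp3 (rc_AI009405_s_at) they were Khk, the ketohexokinase of fructose metabolism (0.22), Sdc4 (0.232) and Tkfc (0.235), beside 0.659. Khk had levels of 3705 in EtOH-160, 3454 in EtOH-220, 1556 in TEN-160 and 3605 in TEN-220. For Igf2r the closest was Hspa5, the chaperone BiP of the endoplasmic reticulum (0.505, beside 1.04), with 851 in EtOH-160, 1595 in EtOH-220, 2988 in TEN-160 and 1729 in TEN-220. For Igfals they were Kif13a (0.169), Scly (0.186) and Asnsd1 (0.193), beside 0.421, and for Igf1 (M15481_g_at) Trim8 (0.128), Fhip2a (0.147) and Idh3g (0.147), beside 0.244.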

How the data were processed

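The deposited values were intensity values of 1 Affymetrix array per sample, made by the authors with MAS5 per the submitters' processing notes (version not stated there). Trimmed by 2% at both ends, the mean signal was 501 on 12 arrays and 133 on TEN-220 replicate 1, which was therefore multiplied by 3.76. Signals under the 10th percentile (9.5) were set to it, values were taken to log2, and the 59 control probe sets and the dimmest 40% of the other 8740 were left out. The mean signals just inside and just outside this filter were 71.31 and 71.29. Group means were fitted with limma 3.58.1 (eBayes with a trend) in R 4.3.3 over all 13 arrays, with two-sided p-values adjusted by Benjamini-Hochberg in each of 6 comparisons. The number of arrays limits the precision. Gene names were those of the array's annotation (7006 probe sets with 1 symbol, 308 with several, 1426 with none), updated through the RefSeq table by Entrez ID for 4303 of 4315 tested probe sets with 1 symbol. Each gene of a list entered by its brightest probe set. Named were all 15 probe sets and the 3 closest profiles per gene. Of the IGF system, growth hormone and insulin lists, genes called in a pairwise comparison were named, and Ghr, Socs2, Igf1r and Pck1 always. Interaction terms of the list genes are not given. The members and lists were chosen with earlier results of these data known. The fit was also run on simulated data with independent normal noise on each array. That simulation held no difference between sets of arrays, so it has no bearing on the TEN-160 arrays. No label says what the title numbers mark. Arrays of equal number shared little of their deviations: of 18 correlations 0 exceeded 0.1 (range −0.129 to 0.1), which cannot exclude a pairing. Alternatives were other scalings, floors, filters and variance models, a replicate block, fits to the groups compared alone and leaving out each array. Plots used matplotlib 3.10.9 in Python 3.11.15.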

Additional observations from a re-analysis of the deposited data

Results flagged for a closer look

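The interaction term of limma's fit, on the log2 scale, was read for all 15 probe sets. By it the ethanol effect of Igfbp1 differed between the energy supplies by −2.94 (95% interval −4.66 to −1.22, adjusted p = 0.0395, limma). That call was lost on leaving out any of 9 arrays and under 3 other settings, and neither ethanol effect of Igfbp1 was called by itself. For the Igfbp3 probe set rc_AI009405_s_at the term was 1.7 (1.15 to 2.26, adjusted p = 0.00316, limma). The other Igfbp3 probe set, M31837_at, had −0.34 and no call (adjusted p = 0.519, limma). Both called terms use the TEN-160 arrays, so a difference between sets of arrays cannot be told apart from the diet.

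Of the 15 probe sets' EtOH-160 groups of 4 arrays, 2 held an array far from the others by Dixon's criterion, where chance marks about 1 group in 20. EtOH-160 replicate 2 had a signal of 38.8 on the Igfbp2 probe set M91595exon_s_at, beside 453 to 483 on the other 3. EtOH-160 replicate 3 had a signal of 120.1 for Igf2r, beside 35.9 to 41.1 on the other 3.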

How the results depend on the processing

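The number of the 15 probe sets called depended on the processing as follows. With values as deposited, TEN-220 replicate 1 not rescaled, it was 1 instead of 0 for ethanol at 220 kcal, 2 instead of 0 for energy with ethanol, 4 instead of 2 for EtOH-160 minus TEN-220 and 1 instead of 2 for the interaction. With array weights it was 2 for energy with ethanol and 6 for EtOH-160 minus TEN-220. For EtOH-160 minus TEN-220 it was 1 with quantile normalization, with median-centred log2 values and without a variance trend, and 0 without the filter. The interaction had 1 without the filter and 1 without a trend. With the title number as a replicate block, added also with an own level for number 4 after seeing the data, EtOH-160 minus TEN-220 had 1. Whether the numbers pair the arrays is not known. Leaving out 1 array gave 2 to 5 for ethanol at 160 kcal, 0 to 1 for energy with ethanol, 4 to 8 for energy without ethanol, 0 to 3 for EtOH-160 minus TEN-220 and 1 to 4 for the interaction. Over all probe sets, leaving out 1 array gave 811 to 1298 calls instead of 1168 for ethanol at 160 kcal, 521 to 1065 instead of 958 for energy without ethanol, 49 to 161 instead of 119 for EtOH-160 minus TEN-220, 152 to 370 instead of 405 for the interaction, 3 to 63 instead of 17 for energy with ethanol and 0 to 11 instead of 1 for ethanol at 220 kcal. Other alternatives gave 115 to 1251, 357 to 1364, 51 to 322, 73 to 593, 0 to 25 and 0 to 55 in the same order.

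Of 47 changes of single probe sets followed through the alternatives, 13 took the other sign under an alternative, and 0 of these were called in that fit. As deposited, which moves the median of all probe sets by 0.637 against TEN-220, they were 0.45 (Igf1 M15481_g_at) and 0.28 (Igf2r) for ethanol at 220 kcal, 0.08 (Igfals S46785_at) and 0.01 (S46785_g_at) for EtOH-160 minus TEN-220 and −0.43 (M15481_g_at) for the interaction. Median-centred values, which move the median by 0.202 for ethanol at 160 kcal and −0.226 for energy without ethanol, gave 0.06 (Igfbp3 M31837_at, ethanol at 160 kcal) and −0.17 (M15481_g_at, energy without ethanol). Array weights gave −0.01 (M15481_g_at, ethanol at 160 kcal) and 0.06 (Igf1 D00698_s_at, energy with ethanol). Leaving out 1 array gave M15481_g_at −0.21 to 0.2 for ethanol at 160 kcal, −0.12 to 0.28 for energy without ethanol, −0.02 to 0.17 for EtOH-160 minus TEN-220 and −0.02 to 0.38 for the interaction. It gave D00698_s_at −0.14 to 0.45 for ethanol at 220 kcal, −0.39 to 0.2 for energy with ethanol and −0.17 to 0.21 for EtOH-160 minus TEN-220, Igf2r −0.74 to 0.12 for ethanol at 220 kcal and Igfbp1 −0.44 to 0.76 for energy with ethanol. The causes were not tested.

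As deposited, the calls of D00698_s_at for ethanol at 160 kcal (change −1.21 as before, with the SE at 0.49 in place of 0.296), of rc_AI009405_s_at for energy without ethanol (−0.76) and the interaction (1.07), and of both S46785 probe sets (−0.32 and −0.44) were lost. Without EtOH-220 replicate 1, ethanol at 160 kcal had 5 called probe sets. The group sizes of 3 and 4 arrays and the unknown pooling limit these results, as do 6 of 13 arrays below background for A09811cds_s_at and 3 of 13 for Igf2r.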
